A study of Homo sapiens and Mus musculus with 19 samples.

Results

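The genes of human chromosome 8 were followed in chromatin-associated RNA (caRNA) from K562 cells, a human leukaemia line with erythroid features and an aneuploid karyotype. The chromosome was chosen by a readout of these same libraries: several of its 10-Mb windows stood higher in TET2 knockout (KO) than in TET2 wild-type (WT) cells. Members were all chromosome 8 genes with at least 10 counts in 3 or more of the 12 K562 libraries, which gave 986 genes of 2373 on this chromosome and of 58676 listed per library. Of these members, 965 passed the low-count filter of the fit over 26022 genes and 555 had a mean of at least 1 CPM (counts scaled to the library's total after TMM normalization). The 43 members that met the rule in exactly 3 libraries held 47 to 122 counts in total (median 67), and the 77 genes just outside, with 10 counts in exactly 2 libraries, held 24 to 119 (median 52).

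The 4 groups were TET2 WT with a control shRNA (shControl), TET2 WT with an shRNA against MBD6 (shMBD6), TET2 KO with shControl and TET2 KO labelled shMBD6, with 3 libraries each. All cells had been transduced with lentiviral shRNA and selected with puromycin. The TET2 KO line had been made earlier and was obtained as a gift; the sources used here do not say whether it is a single clone, and the design holds 1 line per genotype, so the genotype and any other difference between these lines cannot be told apart. TET2 is a dioxygenase that oxidises 5-methylcytosine, and MBD6 is a methyl-binding-domain protein that the study placed downstream of it.

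Chromosome 8 carries genes of many cell functions. Its short arm holds ANK1, which ties the red-cell membrane to spectrin, and the mitochondrial iron importer SLC25A37; its long arm holds the transcription factor gene MYC, the neighbouring long non-coding RNA gene PVT1, the cohesin subunit gene RAD21 and genes for eIF3 subunits and ribosomal proteins. caRNA is enriched in unspliced transcripts that are still attached to chromatin, so its level for a gene depends on how many templates the cell holds, on how often they are transcribed and on how long the transcript stays. DNA copy number was not measured in the files used here.

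Gene counts per library ran from 52158403 to 102070223. The number of genes detected was 28970 to 31932 in TET2 WT shControl, 33529 to 34601 in TET2 WT shMBD6, 28400 to 29073 in TET2 KO shControl and 24480 to 26963 in TET2 KO labelled shMBD6. The 10 genes taken as K562 markers summed to 1110.5 to 1145 CPM, 668 to 689 CPM, 561 to 573 CPM and 793 to 808 CPM in these groups, in that order; HBG2 and HBE1 were listed at 0 in every library. The labels call the cells lymphoblasts, but the lymphoid markers CD3E, CD79A and MS4A1 averaged under 1 CPM in every group, CD3D averaged 1.00 to 1.74 CPM, and all 10 markers of lymphoid, myeloid and fibroblast cells summed to 3.53 to 7.70 CPM. In TET2 WT, MBD6 fell with shMBD6, from 41.5 ± 2.55 CPM (SD, n = 3) to 28.0 ± 2.71 CPM (edgeR adjusted p = 1.83e-07). In TET2 KO it averaged 30.3 ± 0.75 CPM with shControl, and libraries carrying the shMBD6 label averaged 34.4 ± 3.86 CPM (adjusted p = 0.057), which goes against the label. The TET2 KO shControl mean was nearer to that of TET2 WT shMBD6 than to that of TET2 WT shControl. MBD6 therefore does not check either shRNA label in TET2 KO. With shControl, TET2 itself was at 121 ± 2.59 CPM in WT and 129 ± 2.22 CPM in KO cells; where in the gene the edit lies was not known here, so its count does not check the genotype. In bulk RNA a change in the number of cells that make a transcript and a change in its amount per cell cannot be told apart.

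Chromosome 8 stood higher in TET2 KO than in TET2 WT, and the excess lay on the distal long arm. The chromosome held 3.47% to 3.50% of all gene counts in TET2 WT shControl, 3.62% to 3.65% in TET2 WT shMBD6, 4.38% to 4.40% in TET2 KO shControl and 4.19% to 4.20% in TET2 KO labelled shMBD6. The KO and WT libraries did not overlap. Since the chromosome was selected on this contrast, these and the following TET2 KO over WT values are a description, with no test. KO was compared with WT among the shControl libraries (the shControl pair) and among those with the shMBD6 label (the shMBD6-labelled pair). Among members at a mean of at least 1 CPM, the median log2 change was 0.38 in the shControl pair, against 0.02 for all genes at that level, and 0.37 in the shMBD6-labelled pair, against 0.21. Over all 965 members the medians were 0.24 (all genes -0.05) and -0.00 (all genes -0.03). Measured against all genes at the same level, chromosome 8 ranked second of the 23 chromosomes in both pairs, behind chromosome 15; over all tested genes, weak ones included, it ranked second with shControl and 11th with the shMBD6 label. At 1 CPM or more the other 21 chromosomes lay between -0.16 and 0.17 in the shControl pair and between -0.09 and 0.15 in the shMBD6-labelled pair.

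The arms differed. At 1 CPM or more, the 185 short-arm members had a median log2 change of 0.12 in the shControl pair and 0.25 in the shMBD6-labelled pair, which is 0.10 and 0.04 above all genes. The 370 long-arm members had medians of 0.50 and 0.47, which is 0.48 and 0.26 above all genes. To find where the shift begins and ends, the log2 changes were ordered by position and fitted with levels of absolute deviation, with a minimum of 20 genes per level. The shControl profile had 1 boundary and 2 levels. It lay between LACTB2, a mitochondrial endoribonuclease gene (GRCh38 chromosome 8, 70635318 to 70669185), and the non-coding gene ENSG00000285579 (70669369 to 71228629), with midpoints at 70.7 and 70.9 Mb. The 254 genes before it stood 0.11 above all genes and the 301 genes after it stood 0.56 above, which is 1.47-fold. No second boundary was found, so that the upper level ran to the last tested gene, C8orf33, at 145 Mb.

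In the shMBD6-labelled pair the profile had 1 boundary between GDAP1 and MIR2052HG, at 74.4 and 74.7 Mb, with levels of 0.02 and 0.42 above all genes before and after it. Fitted separately against the mean of the TET2 WT libraries of the same shRNA label, the 3 TET2 KO shControl libraries put the boundary at 69.4, 69.4 and 70.8 Mb. The libraries labelled TET2 KO shMBD6 put it at 142.6 Mb (replicate 1) and at 81.4 Mb (replicates 2 and 3). With members at 5 CPM or more, which were chosen after the data were seen, it fell at 67.2 Mb in the shControl pair, between CSPP1 and ARFGEF1, and stayed at 74.6 Mb in the other. At 10 CPM or more it was again 67.2 Mb in the first and moved to 72.5 Mb in the second, between MSC-AS1 and TERF1. A fit to squared deviations placed no boundary in either pair. By transcription start it fell at 71.7 Mb in the shControl pair. Where a boundary was found, the start of the shift thus lay between 67.2 and 71.7 Mb in the shControl pair, and its place varied more between single libraries of the shMBD6-labelled pair.

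**Figure D1:**
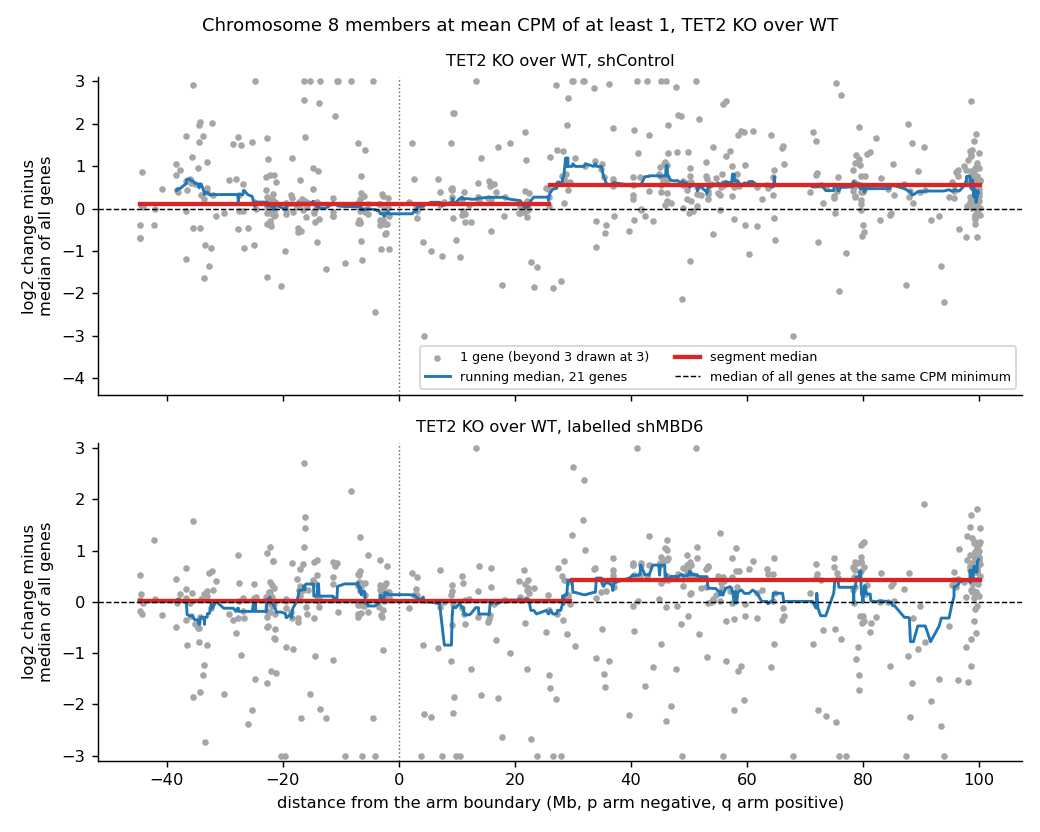
Log2 change of TET2 KO over WT, minus the median of all genes at the same CPM minimum (y axis), against distance from the arm boundary in Mb (x axis), for 555 chromosome 8 genes; the upper panel is the shControl pair and the lower one the shMBD6-labelled pair. Grey points are genes, the blue line is a running median over 21 genes and red lines are the medians of the fitted levels, which step from 0.11 to 0.56 above and from 0.02 to 0.42 below.

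Genes beside the boundary showed how broad the zone was. The centrosome gene CSPP1 had a log2 change of 0.04 in the shControl pair, at 260, 272 and 270 CPM in TET2 WT and 261, 284 and 283 CPM in TET2 KO, where the groups overlapped. Its neighbour ARFGEF1, an ARF guanine exchange factor gene, was at 247, 253 and 261 CPM in TET2 WT and 333, 345 and 327 CPM in TET2 KO, with no overlap (0.40). Further on, NCOA2, a nuclear receptor coactivator gene, was at 275, 296 and 294 CPM in TET2 WT and 407, 403 and 415 CPM in TET2 KO with shControl (0.50), but at 237, 245 and 246 CPM in the TET2 KO libraries labelled shMBD6, below all 3 TET2 WT shMBD6 libraries (304 to 324 CPM). LACTB2 moved by 0.29 in the shControl pair. Beyond the boundary TERF1, which encodes a telomere repeat binding protein, was at 22.8, 21.4 and 21.5 CPM in TET2 WT and 40.0, 38.4 and 36.1 CPM in TET2 KO with shControl (0.80). EYA1, a developmental phosphatase gene at 1.51 to 2.46 CPM in TET2 WT shControl, lay on the distal side and went the other way (-1.85). CSPP1, ARFGEF1, LACTB2 and EYA1 overlap another gene on their strand, so that reads in the shared stretch may be missing from their counts, and their levels are uncertain for that reason.

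The distal members were those beyond the boundary fitted to these same shControl changes. The shares on either side of it are therefore a description. In the shControl pair 83.1% of the 301 distal members lay above the median of all genes, against 56.8% of the short-arm members and 63.8% of the 69 long-arm members before the boundary. In the shMBD6-labelled pair these shares were 68.8%, 53.5% and 46.4%. The edgeR quasi-likelihood fit, at a Benjamini-Hochberg adjusted p under 0.05, placed 352 of 965 members higher in TET2 KO with shControl (36.5%, against 23.5% of all genes) and 115 lower (11.9%, against 22.3%). Scaling by total gene counts gave 291 and 172. In the shMBD6-labelled pair it placed 335 higher (34.7%, against 30.1%) and 274 lower (28.4%, against 28.5%). In 223 members (23.1%, against 11.3% of all genes) every KO library stood above every WT library in both pairs, and 159 of these were distal. These counts use the contrast by which the chromosome was selected, and nothing is read from them.

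The levels of distal and proximal genes were also read in single libraries. The boundary between these sets was fitted to the shControl pair, so the gap in those libraries follows in part from that fit. The values are a description. For each library the level of a set of genes was the median, over its genes at 1 CPM or more, of the log2(CPM + 0.5) difference from that gene's mean over the 12 libraries, centred on the genes of all other chromosomes. The proximal level ran from -0.08 to -0.06 in TET2 WT shControl, from -0.02 to 0.02 in TET2 WT shMBD6, from 0.05 to 0.08 in TET2 KO shControl and from -0.02 to 0.00 in TET2 KO labelled shMBD6. The distal level ran from -0.28 to -0.24, from -0.18 to -0.17, from 0.25 to 0.28 and from 0.15 to 0.20 in the same order. Distal minus proximal was therefore -0.19 ± 0.01 (SD, n = 3), -0.19 ± 0.03, 0.20 ± 0.03 and 0.18 ± 0.02. All 6 WT libraries lay between -0.21 and -0.15 and all 6 KO libraries between 0.16 and 0.22.

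**Figure D2:**
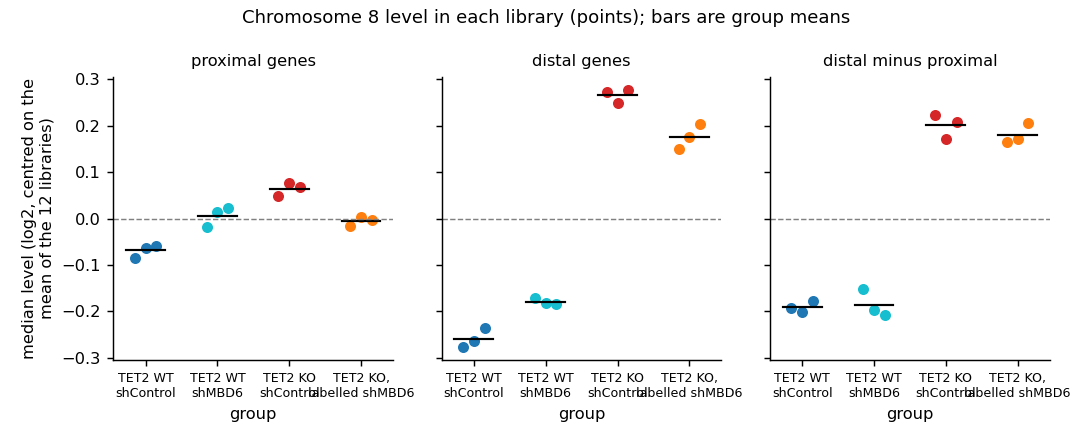
Median level of proximal genes, of distal genes and their difference (y axes, log2, centred on the mean of the 12 libraries) in each library (points) by group (x axis), with bars at group means. In the difference, the 6 TET2 KO libraries sit between 0.16 and 0.22 and the 6 TET2 WT libraries between -0.21 and -0.15, with either shRNA label.

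Within each genotype the shRNA label could be tested. Distal minus proximal differed between shMBD6 and shControl by 0.00 in TET2 WT (two-sided exact permutation test, p = 0.9, adjusted p = 0.9 over 8 comparisons) and by -0.02 between the labelled shMBD6 and the shControl libraries in TET2 KO (exact p = 0.2, adjusted p = 0.23). The distal level was 0.08 higher with shMBD6 in TET2 WT and 0.09 lower in the libraries labelled shMBD6 in TET2 KO, and the proximal level was 0.07 higher and 0.07 lower. In these 4 comparisons the groups did not overlap and the exact p was 0.1, the smallest possible. The study describes its replicates as biological, but the labels do not name separate cultures, so p-values measure the spread between these libraries.

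By 10-Mb window, the values were as follows. In the shControl pair the first 7 windows stood -0.12 to 0.44 above all genes and the last 8 windows 0.32 to 0.88 above, with the highest value at 70 to 80 Mb (32 genes). The windows at the end of the short arm, 0 to 10 Mb (0.44, 25 genes) and 10 to 20 Mb (0.33, 34 genes), were also raised in this pair. The first of them stood at 0.03 in the shMBD6-labelled pair. The window at 70 to 80 Mb stood at 0.13 there. The windows at 80 to 90, 90 to 100 and 140 to 150 Mb stood 0.52, 0.49 and 0.61 above all genes, while 4 windows stood below, at 10 to 20 Mb (-0.27, 34 genes), 50 to 60 Mb (-0.11, 29 genes), 110 to 120 Mb (-0.20, 16 genes) and 130 to 140 Mb (-0.91, 17 genes). All 6 TET2 KO libraries lay above all 6 TET2 WT libraries in the windows at 30 to 40, 80 to 90, 90 to 100, 100 to 110, 120 to 130 and 140 to 150 Mb. In the first of these the gap was narrow, from a highest WT value of -0.02 to a lowest KO value of 0.01, and in the window at 90 to 100 Mb it ran from -0.19 to 0.17.

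**Figure D3:**
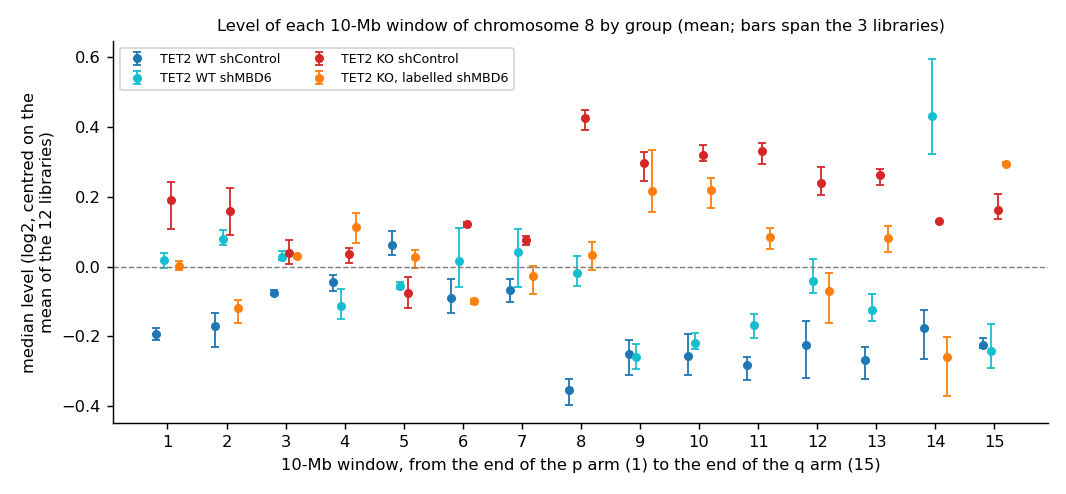
Median level of each 10-Mb window (y axis, log2, centred on the mean of the 12 libraries) for windows 1 to 15 from the end of the short arm (x axis), as the mean of 3 libraries per group with bars from the lowest to the highest library. In windows 9, 10, 11, 13 and 15 both TET2 KO groups sit above both TET2 WT groups, and in window 14 TET2 WT shMBD6 stands at 0.43 and TET2 KO labelled shMBD6 at -0.26.

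In the shControl pair the distal excess was present at every level of expression, and with the shMBD6 label it varied more. The boundary had been fitted to the shControl changes of members at 1 CPM or more, so for these members the excess is a description. In the shControl pair distal members stood above all genes of their own level by 0.46 under 1 CPM (195 genes), 0.52 at 1 to 10 CPM (139), 0.49 at 10 to 50 CPM (89) and 0.58 at 50 CPM or more (73). The proximal members of these classes stood at -0.11, 0.01, 0.11 and 0.18. In the shMBD6-labelled pair the distal values were 0.54, 0.11, 0.57 and 0.39. Weakly expressed genes stood lower across the genome in this pair, with a median log2 change of -1.49 under 1 CPM, beside the difference in genes detected given above, and the part of that difference in the chromosome 8 values was not tested. Protein-coding distal members stood 0.54 and 0.42 above all protein-coding genes in the 2 pairs. Distal lncRNA genes stood 0.85 above all lncRNA genes in the shControl pair and 0.04 above in the shMBD6-labelled pair. Plus-strand and minus-strand distal members stood at 0.55 and 0.57 in the shControl pair and at 0.48 and 0.33 in the shMBD6-labelled pair. Those with and without an overlapping gene on the same strand stood at 0.58 and 0.57 in the first and at 0.27 and 0.41 in the second.

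PVT1 was one of the abundant distal genes. It was at 648, 621 and 633 CPM with shControl in TET2 WT, 636, 626 and 616 CPM in TET2 WT shMBD6, 1073, 1044 and 1058 CPM in TET2 KO shControl and 1058, 1057 and 1070 CPM in TET2 KO labelled shMBD6. KO libraries were 1.67-fold and 1.70-fold of WT, while the shRNA label made no difference that passed the test (log2 change -0.02 ± 0.02 (SE), edgeR adjusted p = 0.56 in TET2 WT, and 0.01 ± 0.02, adjusted p = 0.89 in TET2 KO). RAD21, the kleisin subunit of cohesin, was at 74.4, 77.0 and 76.7 CPM, 72.0, 74.3 and 80.1 CPM, 134, 134 and 144 CPM, and 123, 124 and 136 CPM in the same order of groups. Both KO groups lay above both WT groups, and the shRNA label again did not pass the test (adjusted p = 0.86 and 0.07). EIF3H, a subunit of the initiation factor eIF3, was at 142 to 147 CPM and 125 to 135 CPM in TET2 WT and at 242 to 265 CPM and 203 to 214 CPM in TET2 KO. PTK2, the focal adhesion kinase gene, was at 409 to 426 CPM and 433 to 457 CPM in TET2 WT and at 765 to 792 CPM and 606 to 649 CPM in TET2 KO. PVT1, RAD21 and PTK2 overlap other genes on their strand and their levels are uncertain to that extent. EIF3H and PTK2 were lower in the libraries labelled shMBD6 than with shControl in TET2 KO (log2 change -0.30 each, adjusted p = 2.27e-08 and 1.08e-10).

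MYC, which lies between these genes and beside PVT1, was not raised in the shControl pair. It was at 54.3, 52.9 and 49.2 CPM with shControl in TET2 WT, 43.9, 37.4 and 41.6 CPM in TET2 WT shMBD6, 42.4, 45.6 and 44.1 CPM in TET2 KO shControl and 50.1, 46.7 and 44.4 CPM in TET2 KO labelled shMBD6. With shControl every KO library was below every WT library (log2 change -0.24), and with the shMBD6 label every KO library was above (0.20). shMBD6 lowered MYC in TET2 WT (-0.35 ± 0.06, adjusted p = 2.4e-05) and the label did not pass the test in TET2 KO (0.10 ± 0.06, adjusted p = 0.25).

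**Figure D4:**
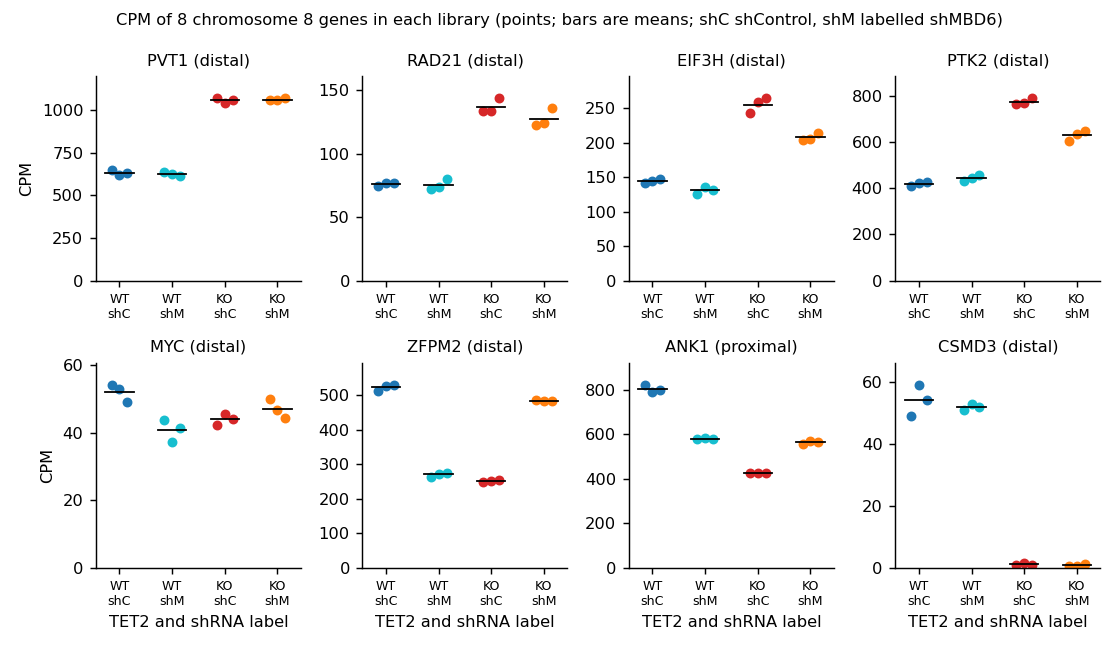
CPM (y axes, from 0) of PVT1, RAD21, EIF3H, PTK2, MYC, ZFPM2, CSMD3 (distal) and ANK1 (proximal) in each of the 12 libraries (points, bars at means) by TET2 genotype and shRNA label (x axes). The upper 4 genes are higher in all TET2 KO libraries, ZFPM2 and ANK1 are lowest in TET2 KO shControl and intermediate or high in TET2 KO labelled shMBD6, and CSMD3 is at 0.457 to 1.58 CPM in TET2 KO.

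Several genes moved far more than the regional shift. CSMD3, a very long gene for a transmembrane protein with CUB and sushi domains (chromosome 8, 112222928 to 113436939), was at 49.0, 59.0 and 54.1 CPM and 50.7, 52.7 and 51.7 CPM in TET2 WT and at 0.965, 1.58 and 0.698 CPM and 0.457, 0.641 and 1.06 CPM in TET2 KO. It lay within the raised segment and was 0.0194-fold and 0.0142-fold of the WT level. The non-coding gene ENSG00000253474, on the long arm before the boundary, was with shControl at 129 to 138 CPM in WT cells but at 3.81 to 5.40 CPM in KO cells. ZMAT4, COL22A1 and CIBAR1 completed the 5 largest losses that did not overlap in either pair, all at under 5 CPM. The largest gains were FAM110B (with shControl, 0.748 to 1.52 CPM in WT cells, 22.7 to 24.9 CPM in KO cells) and the non-coding genes ENSG00000253363 (6.74 to 7.67 CPM, 183 to 191 CPM), ZFHX4-AS1 (2.21 to 2.56 CPM, 46.0 to 50.8 CPM) and ENSG00000253706 (0.727 to 1.70 CPM, 18.4 to 19.5 CPM). ENSG00000248762 was with shControl at 0.00995 to 0.0192 CPM in WT cells but at 14.2 to 17.1 CPM in KO cells; its WT level rests on too few counts for a fold. FAM110B and ENSG00000253363 lie before the boundary, so large gains were found on both sides of it.

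Lists of chromosome 8 genes by function, drawn up with earlier results of these data known, were compared on both sides of the boundary, against the median of all genes at 1 CPM or more. Of all distal members at that level, 83.1% stood above this median in the shControl pair and 68.8% in the shMBD6-labelled pair. The shares of all proximal members were 58.7% and 51.6%. Of 12 translation genes, all 9 distal ones stood above the all-gene median in both pairs, with a median log2 change of 0.45 and 0.77, while the 3 proximal ones (EIF4EBP1, MRPL15 and RPS20) had medians of -0.21 and 0.18. Of 16 DNA replication and repair genes, 7 of 8 distal ones stood above that median in each pair (medians 0.68 and 0.78), the exceptions being the cyclin gene CCNE2 in the shControl pair (-0.09) and the helicase gene RECQL4 in the other (0.13). Of the 8 proximal ones, 3 stood above it in the shControl pair (median -0.07) and 8 in the shMBD6-labelled pair (0.52). MCPH1, the microcephalin gene near the end of the short arm, was at 167 to 178 CPM with shControl in TET2 WT and 303 to 313 CPM in TET2 KO (0.82), a gain outside the distal segment.

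Of 20 chromatin and transcription genes, all 9 distal ones stood above the all-gene median in both pairs (medians 0.32 and 0.77) and so did 8 of 11 proximal ones (0.24 and 0.51). Of 16 receptor and signalling genes, 4 of 5 distal ones stood above it in the shControl pair and 3 of 5 in the other; NDRG1, a stress-response gene of the distal segment, had log2 changes of 1.58 and -1.37. Of 14 erythroid and blood cell genes, 3 of 7 distal ones stood above it in the shControl pair and 4 of 7 in the other, with medians of -0.24 and 0.37; BNIP3L, a mitophagy receptor gene of the short arm, had log2 changes of 1.23 and -0.11. The summed K562 markers given above also differed between the 4 groups, and their part in the values of this list was not tested. Of the long non-coding RNA genes CCAT1 was not tested, PVT1 was higher in KO as given above, LINC00536 had log2 changes of 1.82 and -0.61, CASC8 of -1.24 and -2.70, and the proximal SNHG6 of -0.18 and 0.43.

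Within each genotype the shRNA comparison was tested. It was not the contrast by which the chromosome was chosen, but it uses the same libraries. Its calls and medians are therefore not independent of that choice. In TET2 WT shMBD6 changed 413 of 965 members (edgeR quasi-likelihood test, adjusted p under 0.05), of which 217 were higher (22.5%, against 17.7% of all genes) and 196 lower (20.3%, against 24.7%). The median log2 change was 0.26, against 0.10 for all genes. Scaling moved this split: with DESeq2 size factors 268 were higher and 131 lower, and with total gene counts 265 and 142. In TET2 KO the libraries labelled shMBD6 differed from shControl in 357 members, with 123 higher (12.7%, against 15.7%) and 234 lower (24.2%, against 20.6%) and a median of -0.16, against -0.07; scaling by total gene counts gave 185 higher and 184 lower. The difference between these responses, tested as the genotype by shRNA interaction, was called in 492 members, 185 with a higher response in TET2 KO (19.2%, against 23.9%) and 307 with a lower one (31.8%, against 25.5%). At 1 CPM or more 66.3%, 54.2% and 72.1% of members were called in TET2 WT, in TET2 KO and for the interaction. The shares of all genes at that level were close, at 64.5%, 53.9% and 69.7%. The fitted profile had no boundary in either shRNA comparison.

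**Figure D5:**
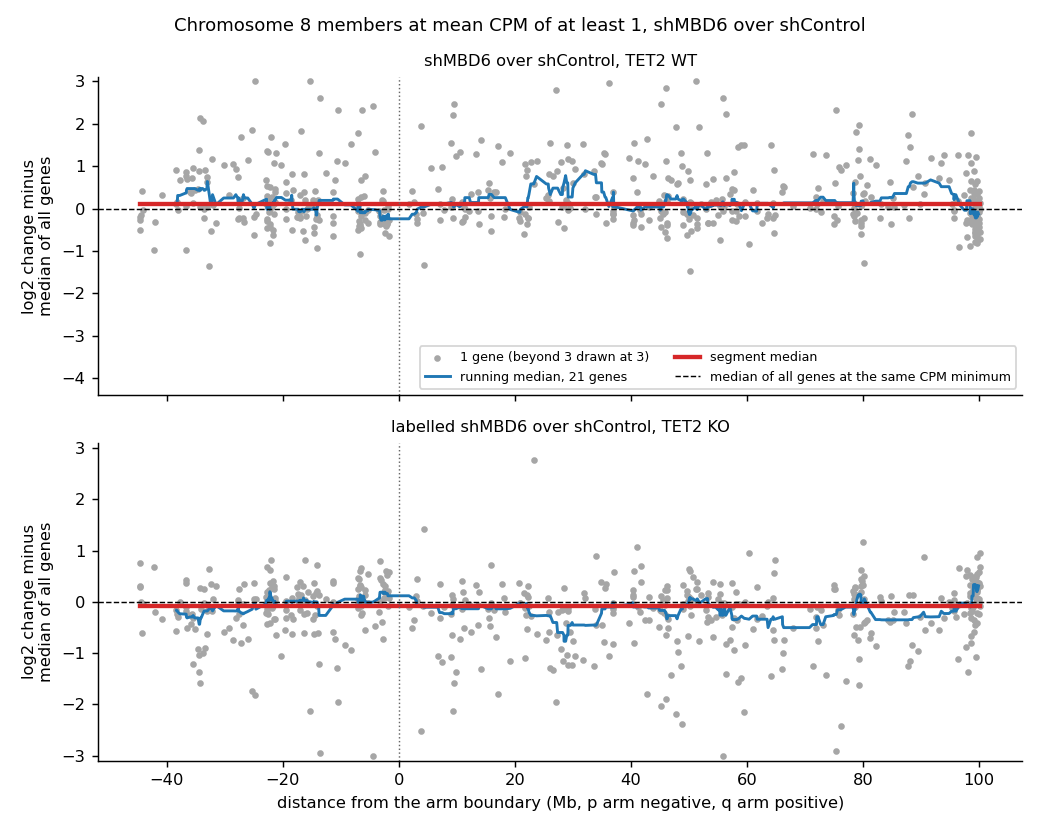
Log2 change of shMBD6 over shControl, minus the median of all genes at the same CPM minimum (y axis), against distance from the arm boundary in Mb (x axis), in TET2 WT (upper panel) and, for the libraries labelled shMBD6, in TET2 KO (lower panel); points, blue and red lines as in the profile of TET2 KO over WT. The red line is a single level in each panel, at 0.10 and -0.08.

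The called shares of distal and proximal members were as follows, with no test of their difference. In TET2 WT 110 of 496 distal members (22.2%) were higher and 102 (20.6%) lower, against 107 of 469 proximal members (22.8%) and 94 (20.0%). In TET2 KO 64 distal members (12.9%) were higher and 121 (24.4%) lower, against 59 (12.6%) and 113 (24.1%). By window, at 70 to 80 Mb the median log2 change stood 0.54 above all genes in TET2 WT and 0.53 below them in TET2 KO, and the window at 130 to 140 Mb stood 0.71 above and 0.31 below.

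ZFPM2, which encodes the GATA cofactor FOG2 and lies in the distal segment, had one of the clearest responses. It was at 510, 526 and 530 CPM with shControl in TET2 WT, 263, 272 and 274 CPM in TET2 WT shMBD6, 248, 251 and 253 CPM in TET2 KO shControl and 486, 482 and 484 CPM in TET2 KO labelled shMBD6. No groups with different shRNA labels overlapped within a genotype, and the directions were opposite: it fell by 0.95 on the log2 scale in TET2 WT (SE 0.03, adjusted p = 4.29e-24) and rose by 0.95 in TET2 KO (SE 0.03, adjusted p = 7.12e-24), with an interaction of 1.90 ± 0.04 (adjusted p = 1.52e-28). ANK1, on the short arm, was at 791 to 824, 580 to 583, 424 to 427 and 559 to 570 CPM in the same groups, again lower with shMBD6 in TET2 WT and higher under that label in TET2 KO, with log2 changes of -0.47 in TET2 WT and 0.41 in TET2 KO (adjusted p = 2.36e-17 and 8.33e-16). ZFPM2 and ANK1 overlap other genes on their strand. MBD6 does not check the shRNA labels in TET2 KO, so the opposite directions rest on the labels as given.

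Other members rose with shMBD6 in TET2 WT. PAG1, a membrane adaptor that recruits the kinase CSK, went from 0.956 to 1.70 CPM up to 7.79 to 11.1 CPM (log2 change 2.83, adjusted p = 1.61e-14) and fell in TET2 KO from 10.2 to 10.8 CPM down to 4.32 to 5.55 CPM (-1.07, adjusted p = 3.23e-06). The non-coding genes LINC02948 (3.54, adjusted p = 2.33e-12), ENSG00000253775 (2.93, adjusted p = 8.56e-16) and ENSG00000254251 (2.72, adjusted p = 9.77e-07) rose as well, all from under 2 CPM. ENSG00000248762 went from 0.00995 to 0.0192 CPM to 0.247 to 0.810 CPM. It met the 1 CPM minimum only through the TET2 KO libraries, and its shControl level in TET2 WT rests on too few counts for a fold. The largest falls in TET2 WT were those of ENSG00000254248 (-1.59, adjusted p = 3.69e-05), FAM86B1 (-1.49, adjusted p = 0.0014), a member of a family of near-identical copies whose counts are uncertain, ENSG00000253474 (-1.46, adjusted p = 1.5e-13), the zinc finger gene ZNF572 (-1.40, adjusted p = 0.00046) and STAR, which encodes the cholesterol carrier of steroid synthesis (-1.19, adjusted p = 5.13e-14). STAR went from 30.6 to 34.4 CPM down to 13.9 to 14.3 CPM.

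In TET2 KO the libraries labelled shMBD6 were highest over shControl for PREX2, a RAC exchange factor gene, at 0.592 to 1.04 CPM with shControl and 4.23 to 5.93 CPM with the shMBD6 label (2.76, adjusted p = 3.2e-11). ENSG00000253474 (1.41, adjusted p = 2.32e-11), LINC00964 (1.16, adjusted p = 8.65e-07), ENSG00000253154 (1.06, adjusted p = 1.45e-12) and ZFPM2 followed; PREX2 overlaps another gene on its strand. The largest falls were those of SNX31, a sorting nexin gene, from 2.12 to 2.73 CPM down to 0.0609 to 0.185 CPM (-4.45, adjusted p = 2.06e-10), SIRLNT (-3.06, adjusted p = 1.71e-06), ENSG00000253377 (-2.95, adjusted p = 8.99e-21), the collagen gene COL14A1 (-2.91, adjusted p = 2.21e-15) and ENSG00000253608 (-2.52, adjusted p = 0.00055). Most of the genes with large responses in either genotype were expressed at a few CPM.

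The same gene lists were read in the shRNA comparisons, beside the calls over all 15460 genes at 1 CPM or more. In TET2 WT 23.5% of those genes were higher and 41.0% lower with shMBD6. With shMBD6 in TET2 WT, 10 of 12 translation genes fell and 0 rose (median -0.34, all genes 0.10), with BOP1, a ribosome biogenesis gene, at -0.52 (adjusted p = 0.00036) and EIF4EBP1, which encodes an inhibitor of eIF4E, at -0.54 (adjusted p = 5.92e-11). Of 16 DNA replication and repair genes 11 fell and 2 rose (median -0.30); the helicase subunit gene MCM4 fell by 0.46 on the log2 scale (adjusted p = 3.16e-10), and the 2 that rose were RECQL4 (0.53, adjusted p = 1.9e-10) and TONSL (0.21, adjusted p = 0.00333). Of 20 chromatin and transcription genes 13 fell and 2 rose (median -0.25), the latter being the histone methyltransferase gene NSD3 (0.15, adjusted p = 9.91e-05) and the acetyltransferase gene KAT6A (0.08, adjusted p = 0.044). Among all genes at 1 CPM or more the median in this comparison was -0.13. Of 14 erythroid and blood cell genes 4 rose and 5 fell (median -0.12), of 16 receptor and signalling genes 7 rose and 5 fell (0.42), and of the 4 long non-coding RNA genes tested 1 rose and 1 fell (0.26).

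In TET2 KO 25.2% of all genes at 1 CPM or more were called higher under the shMBD6 label than with shControl, and 28.7% were called lower. In this comparison 2 translation genes rose and 3 fell (median -0.08, all genes -0.07), 6 replication and repair genes rose and 3 fell (0.10), and 7 chromatin and transcription genes rose and 3 fell (0.10). Among all genes at 1 CPM or more the median in this comparison was -0.01. The erythroid and blood cell genes gave 5 that rose and 4 that fell (-0.07), the receptor and signalling genes 2 and 7 (-0.24) and the long non-coding RNA genes 0 and 1 (-0.46), the latter being LINC00536 (-1.25, adjusted p = 1.18e-05). SLC25A37 rose in TET2 WT from 229 to 231 CPM to 283 to 297 CPM (0.34, adjusted p = 2.98e-11) and fell in TET2 KO from 255 to 264 CPM to 199 to 211 CPM (-0.34, adjusted p = 5.29e-11). TNFRSF10A, a receptor for the death ligand TRAIL, went the other way, falling by 0.64 on the log2 scale in TET2 WT (adjusted p = 6.25e-11) and rising by 0.40 in TET2 KO (adjusted p = 7.78e-07). For the interaction, 11 replication and repair genes, 13 chromatin and transcription genes and 6 translation genes had a higher response in TET2 KO, against 3, 2 and 2 with a lower one; of all genes at 1 CPM or more 39.0% had a higher and 30.7% a lower response.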

How the data were processed

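caRNA was sequenced by the authors from K562 cells, and the mouse libraries of the series were not used. The deposited values were raw counts of reads per gene, 1 table per library. Per the study's methods, reads were trimmed with Trimmomatic 0.39, aligned to hg38 with HISAT2 2.2.1 and counted with HTSeq 0.12.4; the methods also name featureCounts for caRNA. Of chromosome 8 genes nested in a gene on the same strand, 95.0% were at 0 in every library, against 32.2% of those nested on the opposite strand; genes that overlap on a strand are therefore called uncertain. Ambiguous reads made up 4.63% to 5.24% of the records and reads without a unique alignment 10.07% to 11.16%. The tables held no line for spike-in RNA, and all values are relative to the other genes. Reads in no gene made up 13.1% to 16.0% of the records and were left out.

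Gene positions came from a GENCODE annotation of GRCh38, which matched 99.2% of identifiers; 977 chromosome 8 genes passed the filter of the fit, 965 of them members. The arms were split inside the largest gene-free gap, at 44.9 Mb, and a gene was placed by its midpoint. edgeR 4.0.16 (R 4.3.3, limma 3.58.1) was used with TMM scaling, filterByExpr by group and robust quasi-likelihood tests over all 12 libraries, two-sided, with Benjamini-Hochberg adjustment over 26022 genes and a threshold of 0.05. CPM are TMM-scaled. The scripts were tested on simulated data. The profile was fitted by least absolute deviations with a penalty of 3 times the log of the number of genes per boundary. Replicate pairs differed by more than sampling noise, and all 12 libraries were counted.

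Members and gene lists were chosen with earlier results of these data known. Named genes are those of the lists, the 5 largest and 5 smallest changes per comparison at 1 CPM or more (not overlapping between groups, and called where a test was made), the genes beside a boundary, and the targeted genes. NCOA2 and other genes beside a boundary under an alternative setting fall under the same rule. Alternatives were other scalings, filters, tools and sets of libraries.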

Additional observations from a re-analysis of the deposited data

Results flagged for a closer look

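The shMBD6 response of 10 named members differed between the genotypes by the interaction test (edgeR, Benjamini-Hochberg adjusted). The libraries labelled shMBD6 in TET2 KO do not show the knockdown, as given above. The value is the log2 response in TET2 KO minus that in TET2 WT. It was higher in TET2 KO for ZFPM2 (1.902, adjusted p = 1.52e-28), ENSG00000253474 (2.872, adjusted p = 1.02e-15), ENSG00000254248 (2.189, adjusted p = 3.88e-05), FAM86B1 (2.114, adjusted p = 0.0011) and PREX2 (2.308, adjusted p = 3.07e-07). It was lower for LINC02948 (-5.673, adjusted p = 1.83e-14), SNX31 (-6.925, adjusted p = 2.08e-12), SIRLNT (-5.353, adjusted p = 1.56e-08), ENSG00000253377 (-5.435, adjusted p = 2.89e-24) and COL14A1 (-5.105, adjusted p = 3.3e-18). In TET2 KO labelled shMBD6, SNX31 was at 0.0609 to 0.185 CPM and SIRLNT at 0.0914 to 0.470 CPM, and fitted folds of such low values depend on the prior count. FAM86B1 averaged 1.26 CPM, near the 1 CPM minimum, and was highest in TET2 WT shControl, which helped it meet that minimum.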

How the results depend on the processing

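The distal minus proximal difference of the median log2 change kept its sign under every alternative run. Where 1 library was left out, the ranges here and below cover only libraries of the groups compared, or all 12 for the interaction. With shControl it was 0.4505, and 0.4068 and 0.3982 at a mean CPM of at least 5 and 50; leaving out 1 library gave 0.4375 to 0.4751. With the shMBD6 label it was 0.3713, and 0.4464, 0.4129 and 0.3377 at 5, 10 and 50 CPM; leaving out 1 library gave 0.3543 to 0.4111. The CPM minimums and the transcription start were chosen after seeing the data. Squared deviations gave no boundary. The shControl boundary moved from 70.8 Mb to 67.19 Mb at 5 and at 10 CPM, to 71.68 Mb by transcription start and to 69.42 Mb in replicates 1 and 2 alone; replicate 1 labelled shMBD6 alone gave 142.6 Mb. The median over all members depended on the genes and the scaling. With shControl it was 0.2157 with DESeq2 size factors, 0.05995 with total gene counts, 0.2132 with no filter, 0.2162 with the count rule as filter, 0.2784 with only the groups compared, 0.2156 by DESeq2, 0.1836 without same-strand overlaps and 0.3821 at 1 CPM; leaving out 1 library gave 0.2063 to 0.2647. With the shMBD6 label it was, in that order, -0.1177, -0.1456, -0.08199, -0.02612, 0.01547, -0.1177, -0.01835 and 0.3736, with 0.2661 for protein-coding members; leaving out 1 library gave -0.04078 to 0.02401. Scaling by total gene counts moved the median of all genes from -0.05 to -0.23 with shControl and from -0.03 to -0.18 with the shMBD6 label.

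Libraries with the same replicate number were at most weakly correlated (-0.0119 to 0.062, median 0.0115). Those with different numbers ran from -0.0406 to 0.0232 (median -0.009). With a replicate block the medians were 0.2437 and -0.006768 and the called members 419, 352 and 488, against 413, 357 and 492 for shMBD6 in TET2 WT, in TET2 KO and the interaction. Without 1 library of the groups compared these were 348 to 370, 308 to 346 and 445 to 502. The other libraries share the fit and also moved the calls. Without replicate 1 of TET2 KO labelled shMBD6, 243 members were higher and 206 lower with shMBD6 in TET2 WT.

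Small log2 changes of named genes turned sign. With total gene counts these were, for TET2 KO over WT with shControl, PRKDC -0.09625, INTS10 -0.00131, TNFRSF10B -0.05456 and PPP3CC -0.01185; with the shMBD6 label, RECQL4 -0.01545 and INTS9 -0.0408; and for the label in TET2 KO, PABPC1 0.0126 and ARFGEF1 0.02903. INTS9 was -0.01199 with DESeq2 size factors and -0.01188 by DESeq2. For shMBD6 in TET2 WT, under 4 settings (size factors of DESeq2, total counts, unfiltered genes, the DESeq2 test) TCEA1 was 0.01996, 0.006931, 0.0151 and 0.01963, ASAP1 0.02115, 0.008378, 0.01621 and 0.02103, and ARFGEF1 0.02779, 0.01489, 0.02285 and 0.02735. The cause was not tested.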
